A study of Mus musculus with 12 samples.

Results

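The immediate early response genes are switched on within minutes of a stimulus to a cell, and 10 of them were examined here among the 55679 genes of the deposited table. They were chosen by name: Fos, Fosb, Jun, Junb and Atf3, Egr1 and Egr2, Nr4a1, and Ier2 and Ier3. The RNA came from whole lungs and whole hearts of 6 males of the strain 129S6/SvEvTac, aged 9 to 13 weeks. In the 3 Adam19 KO mice, exons 6 and 7 of Adam19, a membrane-anchored metalloprotease, were replaced on both alleles by an in-frame tdTomato construct, and the 3 WT mice carried no such construct. All 6 mice were killed with an overdose of sodium pentobarbital and bled out through the vena cava, and each organ was then removed at once and frozen in liquid nitrogen. Each mouse gave 1 lung and 1 heart library, and mice are numbered 1 to 3 within a genotype, so lung WT 2 and heart WT 2 are organs of the same animal while WT 2 and KO 2 share only a number.

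Immediate early genes need no new protein to be transcribed: kinase cascades activate factors already bound at their promoters, such as SRF with its ternary complex partners and CREB, and many of the transcripts are short-lived. The proteins of the FOS and JUN families pair into the AP-1 transcription factor, the EGR proteins are zinc finger transcription factors that bind GC-rich sites, and NR4A1 is an orphan nuclear receptor. These genes are known to respond to growth factors, stretch, injury, hormones and the dissection of a tissue, which makes their level a common check on how tissue was handled.

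Totals lay between 17674788 and 35862932 estimated counts per library. Values throughout are the authors' gene values on a log2 scale, on which a step of 1 is a fold of 2. Adam19 itself was at 9.14, 9.41 and 9.12 in WT lungs 1, 2 and 3 and at 4.44, 3.21 and 3.50 in KO lungs, and at 9.17, 9.25 and 10.27 in WT hearts and 6.67, 6.01 and 6.56 in KO hearts, so in both organs the KO values were all under the WT values. The summed level of 6 lung epithelial marker genes was 18.86 to 19.15 in the lungs and 6.45 to 10.70 in the hearts, and that of 6 heart muscle genes was 20.78 to 21.06 in the hearts and 13.33 to 14.62 in the lungs. Rn7s1, a copy of the abundant 7SL RNA, took 2.1 to 34% of the counts in lungs and 2.7 to 11.8% in hearts. These are whole organs, in which fewer cells of a type and less RNA per cell cannot be told apart.

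The bases just before the transcription start of 4 members are shown because their promoters carry the letters read by the factors named above. The start is that of the Ensembl canonical transcript of GENCODE vM39 on GRCm39, the assembly that the authors' mm39 names, and sequences run 5′ to 3′ on the gene's strand up to the base before the start. The stretches are chr12:85520528-85520657 (forward strand) for Fos, chr7:19043977-19044246 (reverse) for Fosb, chr10:67373582-67373691 (forward) for Egr2 and chr8:85389484-85389543 (reverse) for Ier2. None overlaps an annotated exon except that of Egr2, which overlaps an exon of Gm66196. Capitals mark the CArG box (bound by SRF), TGACG and TGACGTCA (the short and the full site of the cAMP response element, the first contained in the second) and GCGNGGGCG (an EGR site), each searched on both strands.
Fos: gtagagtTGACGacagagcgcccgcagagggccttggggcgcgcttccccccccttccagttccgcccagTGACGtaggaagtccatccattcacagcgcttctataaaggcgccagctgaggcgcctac
Fosb: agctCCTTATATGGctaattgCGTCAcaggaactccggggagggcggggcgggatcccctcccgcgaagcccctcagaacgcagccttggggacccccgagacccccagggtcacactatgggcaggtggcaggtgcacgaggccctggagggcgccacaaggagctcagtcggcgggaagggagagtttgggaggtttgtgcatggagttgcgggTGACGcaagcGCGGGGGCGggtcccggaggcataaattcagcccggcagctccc
Egr2: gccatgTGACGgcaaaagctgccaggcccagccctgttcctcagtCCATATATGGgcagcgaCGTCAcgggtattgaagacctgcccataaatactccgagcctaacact
Ier2: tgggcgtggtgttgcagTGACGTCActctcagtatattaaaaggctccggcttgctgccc

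Over the 300 bases before the start, TGACG on either strand was found in 7 of the 10 members (Fos, Fosb, Junb, Egr1, Egr2, Nr4a1 and Ier2), against 19.9% of 21737 protein-coding genes searched in the same way. A CArG box was found in Fosb and Egr2, 2 of 10 members, against 1.7% of all genes. TGACGTCA was found in Ier2 alone among the members, against 1.75% of all genes, and GCGNGGGCG in Fosb alone, against 4.72%. The AP-1 letters TGANTCA were in none of the 10 windows and in 7.38% of all windows. These matches describe the letters in the window and do not show that a factor was bound there in these organs. The windows of Junb and Nr4a1 overlap annotated exons of the same genes. That of Egr1 lies before ENSMUST00000064795.7, while all Egr1 counts are on ENSMUST00000165033.2. Sites farther upstream than 300 bases or with a mismatch were not searched, so a member without a match may still have a site.

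Levels between genes were compared per length, in TPM, estimated counts per base of transcript brought to the same total in every library. All but Egr1 could be placed, since the Egr1 transcript that the authors counted has no length in the annotation used here. Ier3, which encodes a stress-inducible regulator of cell survival, stood highest in the lung, with a median of 45.5 TPM over the 6 lungs (35.9 to 102). Jun followed at 35.4 (26.1 to 66.1) and Junb at 31.6 (16.3 to 46.1). The ranges of these 3 genes over libraries overlapped, but Ier3 stood above Jun and Jun above Junb in each of the 6 lungs. TPM is a share of the whole library, of which Rn7s1 took 34% of counts in WT lung 1 and 3.22% in KO lung 2. Ier3 was at 35.9 and 102 TPM in these 2 lungs, but at 10.74 and 10.48 in the gene values. TPM therefore serves to order genes here, and its ranges do not measure the spread of a gene between libraries.

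Ier2 (11, range 8.19 to 22.6), Fos (7.17, 2.89 to 22.3), Nr4a1 (4.89, 1.51 to 13.1) and Atf3 (4.43, 1.56 to 7.59) came next in TPM in the lung, with overlapping ranges. Egr2 at 1.31 (0.803 to 2.23) and Fosb at 0.469 (0.28 to 1.13) were the lowest. The order in the heart opened with the same 4 genes, Ier3 at a median of 24.4 TPM, Jun at 22.5, Junb at 15.4 and Ier2 at 5.3, but Fos, at 1.3 TPM (0.426 to 11.2), stood below Nr4a1 at 4.53 and Atf3 at 3.38. Within the single hearts, Ier3 above Jun above Junb held in 3 of 6 only, and Ier2 was above Nr4a1 in 4 of 6. Nr4a1 was above Fos in 5 of 6 hearts, with KO 3 nearly level at 1.09 and 1.1 TPM. Atf3 was above Fos in 4 of 6, all but WT 2 and KO 1.

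**Figure D1:**
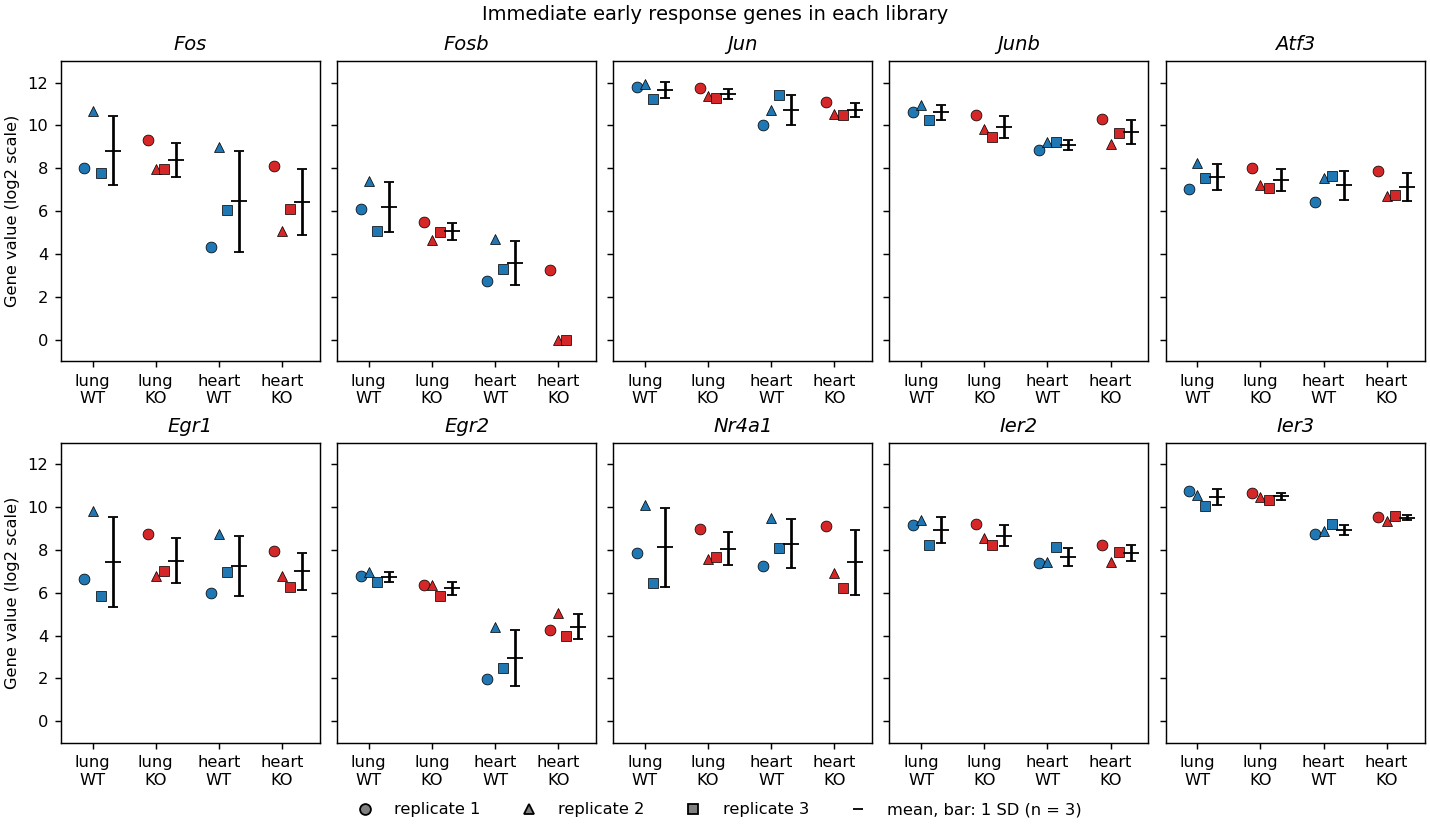
Gene values (log2 scale, vertical axis) of the 10 genes in the 4 groups, 1 point per library with the mouse given by its shape, beside the mean and 1 SD of each group (n = 3; none is drawn for Fosb in KO hearts, where 2 libraries are listed at 0). Fos, Egr1 and Nr4a1 spread widely within groups, with WT 2 and KO 1 at the top in both organs, while the Ier3 libraries of a group lie close together.

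Some members differed widely between mice of the same genotype, Fos, Egr1 and Nr4a1 above all. Fos, the AP-1 subunit most often used as a marker of recent stimulation, was at 8.0, 10.66 and 7.78 in WT lungs 1, 2 and 3 and at 9.31, 7.94 and 7.95 in KO lungs. In the hearts of the same animals it was at 4.33, 8.99 and 6.04 in WT and at 8.10, 5.09 and 6.09 in KO. WT 2 was the highest WT library and KO 1 the highest KO library in both organs, and the genotypes overlapped in both. The highest WT heart was 25.3-fold above the lowest, and the highest WT lung 7.38-fold above the lowest.

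Fosb, a close relative of Fos, was at 6.10, 7.42 and 5.06 in WT lungs and at 5.47, 4.67 and 5.0 in KO lungs. In the heart it was at 2.72, 4.69 and 3.29 in WT and at 3.23, 0 and 0 in KO. WT 2 and KO 1 were again the highest of their groups in both organs. Fosb is the only member that the authors' table does not mark as detected, its estimated counts were at most 122 in any library, and the 2 zeros are listed values at a depth that cannot show absence.

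Jun, the usual partner of Fos, was at 11.77, 11.94 and 11.21 in WT lungs and 11.74, 11.35 and 11.28 in KO lungs. Its heart values were 10.04, 10.70 and 11.43 in WT and 11.07, 10.54 and 10.48 in KO. KO 1 was the highest KO library in both organs, whereas the highest WT library was WT 2 in the lung and WT 3 in the heart.

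Junb, a JUN protein that is a weaker activator than Jun, was at 10.63, 10.95 and 10.24 in WT lungs and at 10.50, 9.83 and 9.47 in KO lungs. In the heart it was at 8.83, 9.24 and 9.21 in WT and 10.29, 9.14 and 9.65 in KO. The KO values leaned low in the lung and high in the heart, and the genotypes overlapped in both organs.

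Atf3, a stress-induced partner of JUN proteins, was at 7.01, 8.22 and 7.53 in WT lungs and 8.02, 7.22 and 7.09 in KO lungs. Its heart values were 6.43, 7.54 and 7.62 in WT and 7.86, 6.71 and 6.74 in KO. KO 1 was the highest KO library in both organs, and all 4 groups covered much the same range.

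Egr1 was at 6.63, 9.81 and 5.86 in WT lungs and 8.72, 6.79 and 7.0 in KO lungs, and at 6.0, 8.75 and 6.99 in WT hearts and 7.96, 6.78 and 6.26 in KO hearts. WT 2 and KO 1 headed their groups in both organs, and the WT lungs spanned 15.4-fold. Egr2, known for its part in myelination and in lymphocytes, was at 6.76, 6.96 and 6.49 in WT lungs and 6.38, 6.37 and 5.87 in KO lungs. In the heart it was at 1.96, 4.42 and 2.5 in WT and 4.25, 5.05 and 3.96 in KO, and the WT 1 and WT 3 hearts held 2.89 and 2.26 estimated counts. The KO lungs all lay below the WT lungs in Egr2, and in the heart the genotypes overlapped.

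Nr4a1 was at 7.84, 10.09 and 6.44 in WT lungs and at 8.96, 7.58 and 7.65 in KO lungs. In the heart it was at 7.27, 9.51 and 8.10 in WT and 9.11, 6.94 and 6.20 in KO. WT 2 and KO 1 were once more the highest of their groups in both organs. Of its 4 annotated transcripts, the retained-intron form ENSMUST00000231153.2 had 47.7 estimated counts in the WT 2 lung and 25.2 in the KO 1 lung against 0 to 8.7 in the other lungs. In the hearts it had 30.8 in WT 2 and 32.8 in KO 1 and was listed at 0 in the other 4 libraries. As a share of all Nr4a1 counts, this form was at 5.41% in the WT 2 lung and 4.36% in the KO 1 lung. That share was 4.15%, 0%, 3.02% and 5.28% in lungs WT 1, WT 3, KO 2 and KO 3. It was 8.14% in the WT 2 heart and 5.76% in the KO 1 heart.

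Ier2, an immediate early nuclear protein, was at 9.14, 9.38 and 8.24 in WT lungs and 9.23, 8.54 and 8.24 in KO lungs, and at 7.39, 7.45 and 8.13 in WT hearts and 8.21, 7.45 and 7.88 in KO hearts. Ier3 was at 10.74, 10.58 and 10.03 in WT lungs and 10.65, 10.48 and 10.35 in KO lungs, and at 8.76, 8.86 and 9.20 in WT hearts and 9.52, 9.37 and 9.60 in KO hearts. Both varied less than Fos, Egr1 and Nr4a1, and the KO hearts all lay above the WT hearts in Ier3.

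The size of this spread was set against other genes as a pooled SD within the genotypes of a tissue, with no test. In the lung, Egr1 (1.66), Nr4a1 (1.41) and Fos (1.26) exceeded 99.7%, 99.6% and 99.5% of the 12882 genes with a mean of at least 6, whose median SD was 0.25. In the heart, Fos (1.99), Nr4a1 (1.34) and Egr1 (1.16) exceeded 99.9%, 99.6% and 99.4% of 11819 such genes, whose median was 0.21. In the heart, 15 genes had a larger SD than Fos.

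At the other end, Ier3 (0.28 in the lung, 0.18 in the heart) stood at the 59.2 and 39.2 percentiles of the same genes, and Egr2 in the lung (0.26) at the 53.8 percentile. Atf3 and Ier2, each with 0.56 in the lung, lay at the 95 and 94.9 percentiles, and Atf3 (0.66) and Jun (0.54) at the 97.9 and 96.3 percentiles in the heart. Jun in the lung (0.32) was at the 69 percentile. The members thus ranged from the top of the distribution to below its median.

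**Figure D2:**
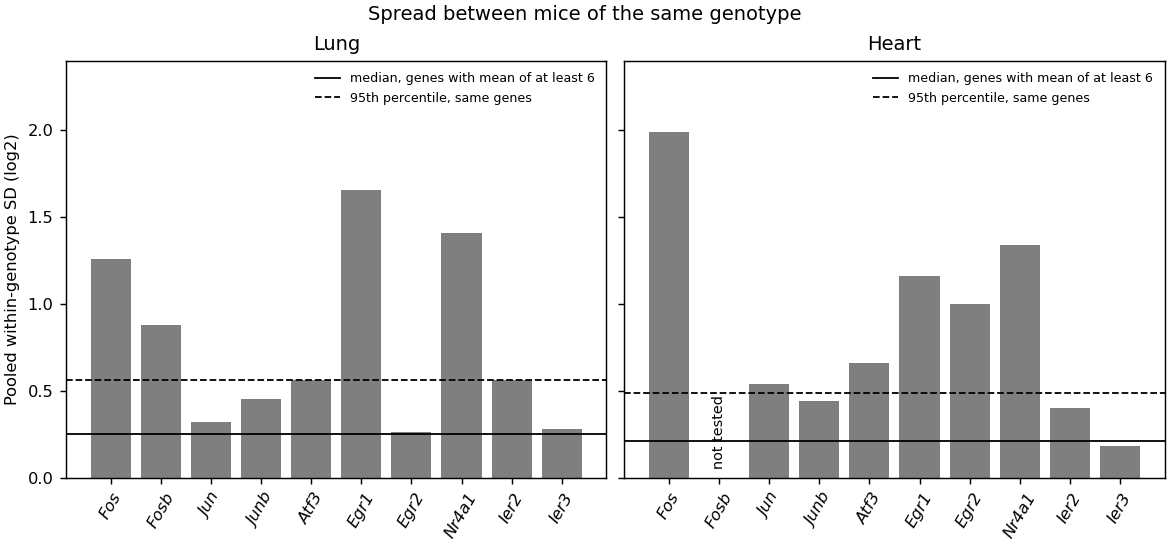
Pooled SD within genotypes (log2, vertical axis) of each gene in lung and heart, with the median and the 95th percentile over genes with a mean of at least 6 as lines. Fos, Egr1 and Nr4a1 stand far above the 95th percentile (0.56 in the lung, 0.49 in the heart) in both organs, and Ier3 lies near or below the median; Fosb was too low to be tested in the heart.

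The same animals were high in several members at once. Taking each value less the mean of its tissue and genotype and averaging over the 10 members, the lungs deviated by -0.19, 0.95 and -0.76 in WT 1, 2 and 3 and by 0.58, -0.24 and -0.33 in KO 1, 2 and 3. The hearts deviated by -0.84, 0.80 and 0.04 in WT and by 0.84, -0.41 and -0.43 in KO. Fosb enters these means with 2.15 in the KO 1 heart, beside KO hearts 2 and 3 in which it is listed at 0. WT 2 and KO 1 were thus the highest of their genotype in both organs, while the lowest WT animal was WT 3 in the lung and WT 1 in the heart. The distance between the highest and the lowest lung was 1.71, and it was 0.91 without the WT 2 lung.

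Gene by gene, the WT 2 lung was the highest of the 3 WT lungs in 9 of 10 members, where 27.7% of all lung genes with a mean of at least 6 were highest in that library. The KO 1 lung was the highest KO lung in all 10 members, against 35.3% of those genes. In the heart, WT 2 was highest in 6 of 10 members (34.3% of all such heart genes) and KO 1 in 8 of 10 (24.4%). WT 1 was the lowest WT heart in all 10 members, against 25.9%, and WT 3 the lowest WT lung in 9 of 10, against 35.2%. The 10 members were not held to the mean of 6 asked of the other genes. Fosb had a mean of 5.62 in the lung and 2.32 in the heart, and Egr2 one of 3.69 in the heart.

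WT 2 was the highest WT animal in both organs for Fos, Fosb, Junb, Egr1, Egr2 and Nr4a1, 6 of 10 members. KO 1 was the highest KO animal in both for Fos, Fosb, Jun, Junb, Atf3, Egr1, Nr4a1 and Ier2, 8 of 10. Over the 11032 genes with a mean of at least 6 in both organs, WT 2 was highest in both for 12.6% and KO 1 for 10.9%. Fosb and Egr2, counted among the members, lie below that mean in the heart. Lung and heart of an animal share its life, its death and its dissection, and the labels give no time between death and freezing. KO 1 is also the only KO mouse with its identifier prefix, while WT 2 shares its prefix with another WT mouse. The part of any of these in the pattern was not tested.

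**Figure D3:**
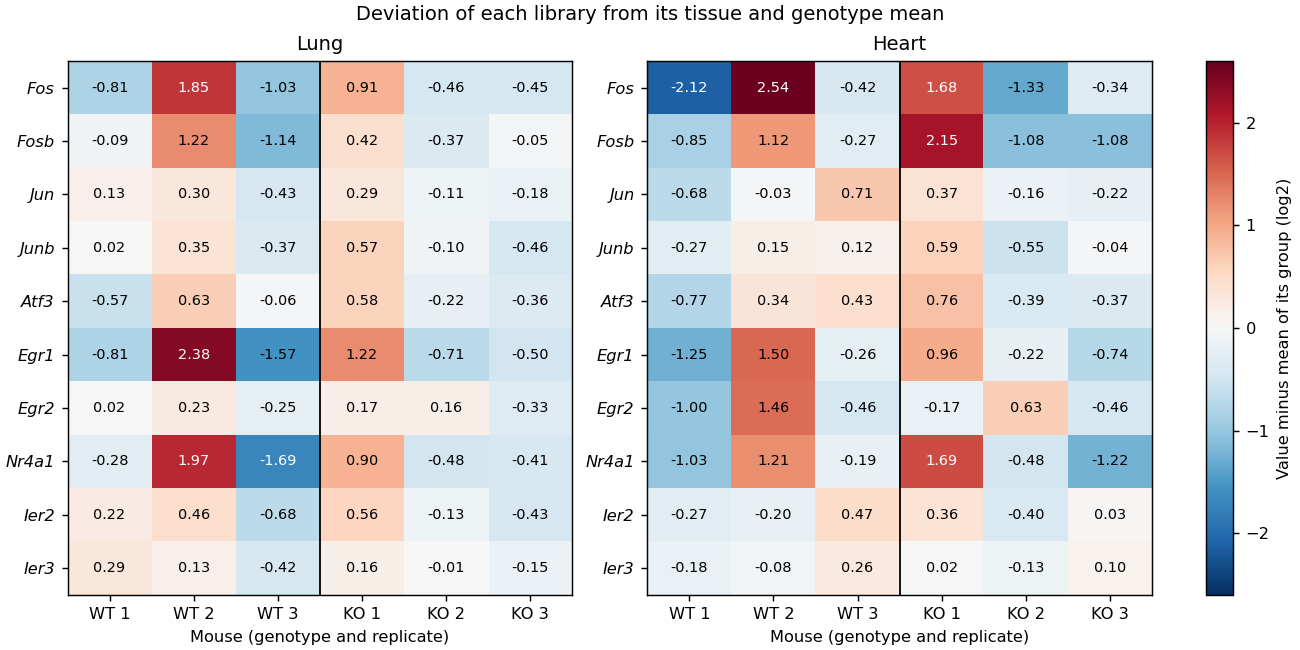
Each library's value less the mean of its tissue and genotype (log2, color and number) for the 10 genes, with mice as columns and lung and heart side by side. The columns WT 2 and KO 1 are positive for most genes in both organs, up to 2.54 for Fos in the WT 2 heart.

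Other measures of the libraries were set beside the members' mean deviation as Pearson correlations over the 12 libraries, which come in pairs from 6 animals and are given as descriptions. The other immediate early genes on a list of 42, of which 35 had a mean of at least 6, deviated on average by 0.27 in the WT 2 lung, 0.21 in the KO 1 lung, 0.09 in the WT 2 heart and 0.19 in the KO 1 heart, with r = 0.91. Of these 35 genes, 16 had an r above 0.62, the 95th percentile of the 12174 genes compared. The 5 KLF genes had r = 0.72 (0.65 in the lungs and 0.78 in the hearts) and the 15 upstream regulators 0.61 (0.86 and 0.42). The other AP-1 partners had 0.47 (0.79 and 0.06) and the other EGR and NAB genes 0.42 (0.39 and 0.44). These are correlations of list averages, and single genes differed. The other immediate early genes ran from -0.52 (Gadd45b) to 0.98 (Dusp1) with a median of 0.56. KLF genes ran from -0.79 (Klf10) to 0.81 (Klf2) with a median of 0.26. Upstream regulators ran from -0.45 to 0.64 with a median of 0.30. Among the lists for other stress responses, r was 0.13 for 11 heat shock genes (-0.07 and 0.42), 0.22 for 10 glucocorticoid targets (0.53 and -0.20) and 0.01 for 11 hypoxia targets (0.24 and -0.52). For the glucocorticoid targets, WT 2 was the highest WT animal in both organs (0.24 in the lung, 0.06 in the heart), as for the members, but the highest KO animal was KO 2 (0.28 and 0.26), with KO 1 at -0.02 and -0.15.

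Cell type markers gave r from -0.47 (macrophages) to 0.45 (fibroblasts) over the 12 of 14 lists that had genes with a mean of at least 6. Within the 6 lungs alone, the values farthest from 0 were -0.75 for B and T lymphocytes and 0.71 each for lung epithelium and mesothelium, then 0.63 for fibroblasts, and in the hearts these lists had -0.09, 0.16, 0.22 and 0.30. Within the 6 hearts alone, the values farthest from 0 were -0.56 for heart muscle and -0.55 for neutrophils, and in the lungs these had 0.08 and 0.30. The total estimated counts had r = -0.51, the Rn7s1 share r = 0.27 and the mitochondrial share r = 0.15. The skeletal muscle list had no gene with a mean of at least 6 and so no r. Its 5 genes had a summed level of 10.86 in the WT 2 lung, against 6.24 and 5.94 in WT lungs 1 and 3. They stood at 5.37 to 5.77 in the KO lungs and 4.92 to 6.06 in the hearts. The part of depth and of cell makeup in the members' spread, muscle in the WT 2 lung included, was not tested.

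**Figure D4:**
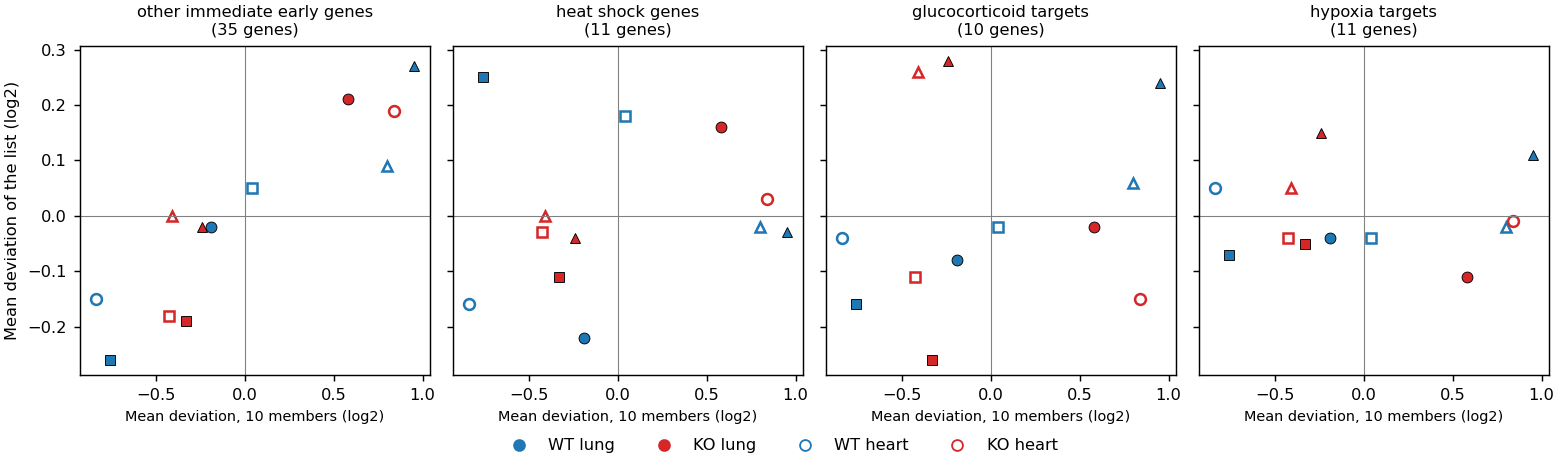
Mean deviation of 4 gene lists (log2, vertical axis) against the mean deviation of the 10 members (log2, horizontal axis) in the 12 libraries; filled points are lungs, open points hearts, blue WT and red KO, and circles, triangles and squares are replicates 1, 2 and 3. The other immediate early genes rise along the horizontal axis (r = 0.91), and the heat shock, glucocorticoid and hypoxia lists are scattered (r = 0.13, 0.22 and 0.01).

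The genes whose deviations ran closest to the members' mean over the 12 libraries, among 12174 genes with a mean of at least 6 and the members left out, were Dusp1 (r = 0.98), Ptpn14 (0.96), Ltbp1 (0.93), Zfp36 (0.93), Coro7 (0.93), Cplx2 (0.92), Btg2 (0.91), Prrg3 (0.91), Nckap5l (0.90) and Kdm6b (0.89). Dusp1, a phosphatase that switches off MAP kinases, Zfp36, which speeds the decay of AU-rich mRNAs, and Btg2, an antiproliferative gene, stood on the list of other immediate early genes. Dusp1 was at 10.41, 11.73 and 9.94 in WT lungs and 11.12, 9.92 and 10.31 in KO lungs, and at 9.12, 10.60 and 9.95 in WT hearts and 10.66, 9.66 and 9.55 in KO hearts. Its highest libraries were WT 2 and KO 1 in both organs, as for Fos. Ptpn14 moved over far less, from 10.58 to 10.92 in the hearts, and the ranking does not weigh the size of a deviation. With the lungs alone 0 of these 10 genes stayed among the closest 10, with the hearts alone 1, and with Spearman correlations 4.

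Among the members themselves, the correlation with the mean of the other 9 over the 12 libraries was 0.96 for Nr4a1, 0.93 for Egr1, 0.91 for Fos, 0.88 for Fosb, 0.84 for Atf3 and 0.82 for Junb. It was 0.68 for Jun, 0.64 for Ier2, 0.47 for Egr2 and 0.43 for Ier3. Jun, Ier2, Egr2 and Ier3 each had a higher value in the lungs (0.91, 0.87, 0.74 and 0.63) than in the hearts (0.58, 0.39, 0.48 and 0.19).

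The comparison of KO with WT addressed whether loss of Adam19 changed gene expression in each organ. Genes were called where limma gave an adjusted p under 0.05, a fold of at least 1.5 and a highest group mean of at least 6. In the lung, 0 of 10 members were called, against 0.0665% of the 16551 genes tested, and the lowest adjusted p was 0.82. In the heart, 0 of the 9 members tested were called, against 0.085% of 15303 genes, and the lowest adjusted p was 0.484. Fosb passed the filter on low values in the lung only. The median KO minus WT difference was -0.22 over the 10 members in the lung and -0.03 over the 9 in the heart, beside 0.01 and 0.03 over all genes tested.

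At an unadjusted p under 0.05 there was 1 member in the lung, Junb, where 5.93% of all genes had such a p, and 1 in the heart, Ier3, where 7.46% had. limma-voom on rebuilt counts called 0 in either organ, with 1 member in the lung and 2 in the heart under the unadjusted limit. Junb was 0.67 lower in KO lungs on the log2 scale (SE 0.28, adjusted p = 0.82 by limma) and 0.60 higher in KO hearts (SE 0.27, adjusted p = 0.671). Ier3 was 0.55 higher in KO hearts (SE 0.16, limma adjusted p = 0.484) and 0.04 higher in KO lungs (SE 0.20).

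Genotypes did not overlap for 1 of 10 members in the lung, Egr2, where this held for 12.8% of all genes, and for 1 of 9 in the heart, Ier3, where it held for 13%. Egr2 was 0.53 lower in KO lungs (SE 0.25, limma adjusted p = 0.836). In the hearts it was 1.46 higher in KO (SE 0.69, adjusted p = 0.691), at values of few counts.

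The spread between mice set how small a genotype difference could be seen. The KO minus WT difference of Fos was -0.42 in the lung with an SE of 0.72 and -0.03 in the heart with an SE of 1.11. That of Egr1 was 0.06 (SE 0.94) in the lung and -0.25 (SE 0.66) in the heart, and that of Nr4a1 was -0.06 (SE 0.80) and -0.87 (SE 0.75). Without the WT 2 lung the lung difference was 0.51 for Fos, 1.25 for Egr1 and 0.92 for Nr4a1, and none of them was called. At these errors, a genotype difference of 2-fold in these genes was not detectable with 3 mice a group.

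The difference between the organs' genotype effects was called for 0 of 10 members, against 0.00566% of 17666 genes. Unadjusted p-values under 0.05 were found for 2 members, where 7.88% of all genes had one, and limma-voom gave 2 with 0 called. These were Junb, whose KO minus WT difference was 1.27 lower in the lung than in the heart (log2, SE 0.43, limma adjusted p = 0.548), and Egr2, for which it was 1.99 lower (SE 0.75, adjusted p = 0.599).

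Related genes were not called between genotypes either. Of the 39 other immediate early genes tested in each organ, 0 were called between genotypes, with 4 in the lung and 4 in the heart at an unadjusted p under 0.05. The other AP-1 partners (9 tested in lung, 7 in heart), the 5 KLF genes and the 15 upstream regulators (kinases and factors of the SRF and CREB routes) also held 0 called genes in either organ.

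Lung and heart differed in most members, and every difference that was called was toward the lung. The lung was higher than the heart for 7 of the 10 members by the same thresholds, where 30.1% of 17666 genes were called higher in lung and 21.2% lower. The median difference of the members was 0.96 on the log2 scale and that of all genes 0.31. Scaling the libraries by TMM, a trimmed mean of log ratios, lowered the median over all genes by 0.22, to 0.09, and left the same 7 members called. Of these 7, Fosb and Egr2 reached the group mean asked for in the lung only, with heart group means of 1.08 to 4.42. With a value of at least 3.46 asked of every library, both dropped out and 5 of 8 members were called. In that setting 4325 of 13005 genes were called higher in lung and 3372 lower.

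Fosb had the greatest fitted difference, at 3.30 (SE 0.61, limma adjusted p = 2.66e-04), and was higher in the lung of all 6 mice, by 1.76 to 5.0. In 2 of its heart libraries Fosb is listed at 0, and all its heart values are under 5. Egr2 was 2.78 higher in lung (SE 0.38, limma adjusted p = 1.82e-05), by 1.32 to 4.79 within a mouse. Fos was 2.16 higher (SE 0.78, limma adjusted p = 0.0226), by 1.21 to 3.67, in all 6 mice, although the ranges of the organs overlapped, from 7.78 to 10.66 in the lungs and from 4.33 to 8.99 in the hearts.

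In fits that did not pair the organs of a mouse, the Fos call was the least firm of the 7. Its adjusted p rose past 0.05 without the lung WT 2 (0.0591), lung KO 1 (0.0542), heart WT 1 (0.0582) or heart KO 2 library (0.0581) and with a robust variance estimate (0.0537), at differences of 1.63 to 2.16. Over all settings the limma adjusted p of Fos ranged from 1.94e-04 to 0.0591. The lowest came from the fit with the mouse as a block, which pairs lung and heart. Fosb was not called without the lung WT 2 library or with summed transcripts, since its highest group mean then fell below 6, while its adjusted p stayed at 8.57e-04 and 4.68e-04.

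Ier3 was 1.26 higher in lung (SE 0.13, limma adjusted p = 1.53e-06), by 0.75 to 1.98 within each of the 6 mice. Ier2 was 1.04 higher (SE 0.24, limma adjusted p = 0.00152), also in 6 of 6 mice. Junb was 0.87 higher (SE 0.22, limma adjusted p = 0.00255) and Jun 0.84 higher (SE 0.22, limma adjusted p = 0.00342), each in 5 of 6 mice, with KO 3 the exception for Junb and WT 3 for Jun. The 6 lungs and 6 hearts did not overlap at all for Egr2, Ier2 and Ier3, 3 of 10 members, against 34.8% of all genes that lay wholly higher in lung.

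Atf3, Egr1 and Nr4a1 were not called between the organs. The lung minus heart difference was 0.37 for Atf3 (SE 0.30, limma adjusted p = 0.282), 0.34 for Egr1 (SE 0.67, adjusted p = 0.655) and 0.24 for Nr4a1 (SE 0.64, adjusted p = 0.745). The lung value was above the heart value in 5 of 6 mice for Atf3, in 5 for Egr1, with KO 2 at a difference of 0.00, and in 4 for Nr4a1. Without the lung WT 2 library the fitted difference of both Egr1 and Nr4a1 was -0.25. The SE of Egr1 and Nr4a1 was close to that of Fos.

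**Figure D5:**
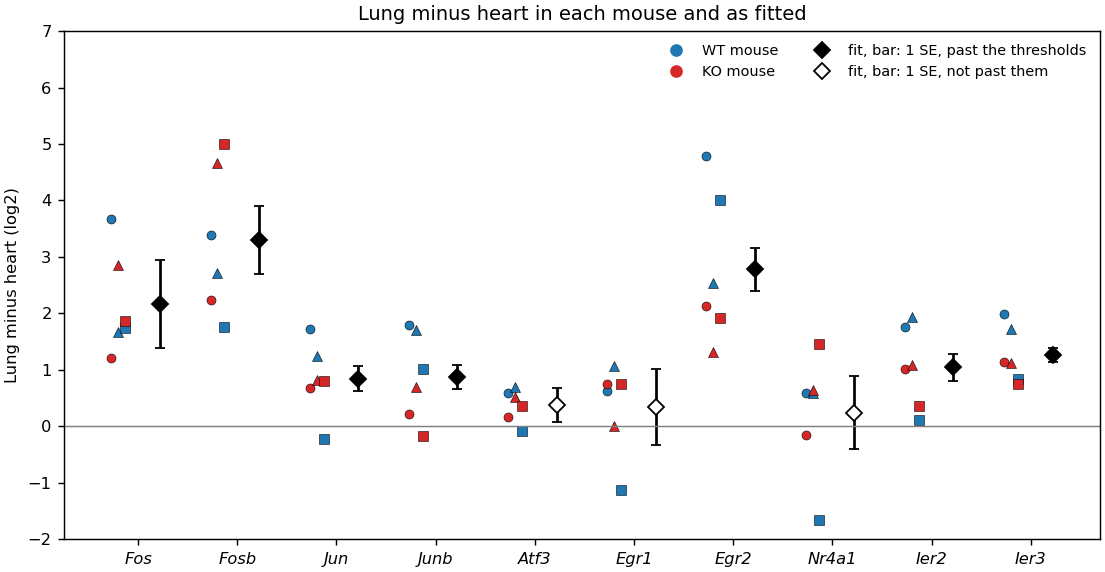
Lung minus heart difference (log2, vertical axis) of the 10 genes within each mouse, as small points with WT in blue and KO in red and circles, triangles and squares for replicates 1, 2 and 3, and as fitted over all libraries, as diamonds with 1 SE. The 7 filled diamonds, from 0.84 for Jun to 3.30 for Fosb, passed the thresholds, and the open ones, Atf3, Egr1 and Nr4a1, lie between 0.24 and 0.37.

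Among the other immediate early genes, 18 of 40 tested were higher in lung and 3 lower, with a median difference of 0.61. Over all genes tested, 30.1% were called higher in lung and 21.2% lower. Ptgs2, which makes prostaglandins, was 3.50 higher in lung (SE 0.38, limma adjusted p = 2.25e-06) and Errfi1, an inhibitor of EGF receptor signaling, 2.66 higher (SE 0.12, adjusted p = 4.73e-10). Dusp6, a phosphatase of ERK, was 2.24 higher (SE 0.09), and Tnfaip3, a brake on NF-kB, 2.17 higher (SE 0.15). Arc, best known from synapses, went the other way and lung minus heart was -5.28 (SE 0.27, adjusted p = 1.42e-09).

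Of the other AP-1 partners, 3 of 9 tested were higher in lung and 0 lower, Batf by 2.54, Jdp2 by 2.03 and Maff by 0.82. This count lay near the 30.1% of all genes called higher in lung, the share to set beside each list here. The share called lower was 21.2%. Of the KLF genes, zinc finger factors of which Klf2 and Klf4 are known from endothelium, 4 of 5 were higher, Klf6 by 1.48, Klf2 by 1.32, Klf10 by 1.20 and Klf4 by 0.89. Nr4a2 was 1.76 higher in lung (SE 0.31, limma adjusted p = 1.66e-04), while its relative Nr4a1 did not pass. The upstream regulators were split, with 4 of 15 higher and 4 lower in lung, and Srf, the factor that binds the CArG box, was at -1.97 (SE 0.22, limma adjusted p = 3.07e-06), higher in heart.

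All 11 heat shock genes passed between the organs, 5 higher in lung and 6 lower, with Bag3 at -2.90 (SE 0.13) and Hspd1 at -2.24 (SE 0.09). Of the glucocorticoid targets, 3 of 10 were higher in lung and 2 lower, and of the hypoxia targets 3 of 11 higher and 5 lower. The shares over all genes were 30.1% higher and 21.2% lower. The organs differ in many of their cell types. The 5 endothelial marker genes had a summed level of 15.52 to 15.71 in the lungs and 13.85 to 14.00 in the hearts, and the 6 macrophage genes 14.38 to 15.06 and 11.51 to 11.86. The red blood cell genes overlapped, at 12.85 to 17.16 and 12.81 to 15.80, with 0 of 5 called. The part of cell makeup in the members' difference between lung and heart was not tested.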

How the data were processed

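Strand-specific total RNA libraries, 12 in all, were grouped by the tissue and genotype in their labels. The authors quantified reads with Salmon 1.10.0 against GENCODE vM33 (mm39) and deposited log2 values for 55679 genes and 147907 transcripts. The transcript values are log2(1 + estimated count), and the deposited gene values carry in addition a constant for each library, from -0.63 to 0.80. The method behind the constants is not given in the sources used here. Genes with a deposited log2 value of at least 3.46 in at least 3 libraries were tested. Before the library constant is added, that value stands for 10 estimated counts. The tests used limma 3.58.1 (R 4.3.3, lmFit and eBayes with a variance trend) and Benjamini-Hochberg adjustment over all genes tested. They were run within each tissue for genotype and over 4 group means for tissue and for the difference between tissues. The study's thresholds were kept (adjusted p under 0.05, fold of at least 1.5, a group mean of at least 6). Lung and heart come from the same mice by their identifiers. Over 17666 genes, the correlation of a mouse's lung and heart deviations was -0.068 to 0.136. No identifier prefix is shared between genotypes, so a difference between prefixes and genotype cannot be told apart. Transcript lengths were found in GENCODE vM39 for 99.5% of transcripts. The scripts were tested on simulated data. The alternatives are other filters, scalings, variance models, summed transcripts, a mouse block and each library left out. The 10 members and all gene lists were chosen with earlier results of these data known. Named genes are the members, up to 5 called genes per list and comparison by size of difference, and the 10 genes most like the members.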

Additional observations from a re-analysis of the deposited data

How the results depend on the processing

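Between the genotypes, and for the difference of the genotype effect between organs, 0 members were called under each of the 10 other settings and with any 1 library left out. Between lung and heart, the number called was 5 to 7 with 1 library left out, 5 when a value over the floor was asked of every library (8 members were then tested, without Fosb and Egr2), 6 with a robust variance estimate, 6 with summed transcripts and 7 in the other settings. The fit with the mouse as a block gave 7 called members for the pairing of lung and heart, and it changed no call among the members in either comparison it was run for. No block was possible between WT and KO, which share no animal. Fos fell short at 2.16 with a robust estimate, and Fosb fell short at 3.11 with summed transcripts and at 2.99 without the lung WT 2 library.

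Several uncalled member differences changed sign with a setting. As ranges with 1 library left out, KO minus WT in the lung was -0.93 to 0.51 for Fos, -0.44 to 0.17 for Atf3, -0.72 to 1.25 for Egr1, -0.90 to 0.92 for Nr4a1 and -0.16 to 0.19 for Ier3. In the heart it was -1.09 to 1.24 for Fos, -0.37 to 0.32 for Jun, -0.48 to 0.12 for Atf3 and -0.87 to 0.51 for Egr1. The lung effect minus the heart effect was -1.66 to 0.67 for Fos, -0.51 to 0.19 for Jun, -0.34 to 0.33 for Atf3, -0.48 to 1.5 for Egr1 and -0.03 to 1.80 for Nr4a1. Lung minus heart was -0.25 to 0.74 for Egr1 and -0.25 to 0.66 for Nr4a1. With limma-voom, KO minus WT was 0.02 for Nr4a1 in the lung and 0.26 for Fos in the heart, and with summed transcripts it was 0.01 for Nr4a1 in the lung. The cause was not tested for these 3 values.

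The distance between the highest and the lowest mean deviation was 0.91 to 1.71 in the lung and 1.27 to 1.66 in the heart with 1 library left out. Of the 10 genes named as most like the members, 4 were shared with Spearman correlations, 0 with lungs alone, 1 with hearts alone and 9 after median scaling, and the cause was not tested. The 18 ranks of level per length were all kept with 200 bases taken off each length. With 3 mice a group, a permutation of single values cannot give a p below 0.1, and p-values measure the spread between these mice only. Fosb and the heart values of Egr2 rest on few estimated counts.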

Other observations

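Several genes outside the 10 members were high in the same libraries, given here as values without a test. The correlation with the members' mean deviation over the 12 libraries was 0.85 for Sik1, a kinase induced by cAMP, 0.81 for Klf2, a flow-responsive endothelial factor, 0.80 for Trib1 and 0.79 for Ccn1, a matrix protein induced by serum. It was 0.78 for Hspa1b and 0.67 for Hspa1a, the inducible Hsp70 genes, which are near-identical copies whose reads may be split between them, while the list of 11 heat shock genes had a median of -0.08 and a lowest value of -0.67. Per1, a clock gene that glucocorticoids also induce, had 0.67, with 0.81 in the lungs and 0.81 in the hearts, while the list of 10 glucocorticoid targets had a median of 0.08. Slc2a1, the glucose transporter on the hypoxia list, had 0.68, and that list of 11 had a median of 0.22. The list of 5 KLF genes that holds Klf2 had a median of 0.26, with Klf10 at -0.79. The list of other immediate early genes, which holds Sik1, Trib1 and Ccn1, had a median of 0.56, with Gadd45b at -0.52. The 12 libraries come from 6 mice, and the median over all 12174 genes compared was -0.04.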
